A study of Homo sapiens with 12 samples.

Results

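The regions described here are 500 bp bins of the genome in which peaks of H3K27ac were present in more DMSO libraries than dexamethasone libraries, whatever the CEBPB genotype. The 22 autosomes and X were cut every 500 bp, and a bin counted as present in a library when its peaks covered at least 250 bp. A bin was kept, and is called lost, when it was present in at least 4 more of the 6 DMSO libraries than of the 6 dexamethasone libraries. This held for 1657 of the 292998 bins present in at least 1 library (0.566%). The members were thus chosen by presence in these same libraries, and every difference between DMSO and dexamethasone at them is given as a description with no test. The tests concern the genotypes, the difference in response between genotypes, and libraries that took no part in choosing a bin.

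The libraries came from RPMI 8226, an established human multiple myeloma line, in which H3K27ac was mapped by CUT&RUN, a method that releases antibody-bound chromatin with a tethered nuclease. Scramble control cells and cells with a CEBPB knockout were each given DMSO or 10 µM dexamethasone, a synthetic glucocorticoid, for 2 h, with 3 libraries in each of the 4 groups and 100000 cells per assay. All libraries thus came from a single cell line. The labels do not tell if the knockout cells are clonal, or if libraries within a group stem from different cultures, so p-values measure only the spread between these libraries, which may be technical.

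Acetylation of lysine 27 of histone H3 marks active promoters and enhancers. It is written by acetyltransferases that transcription factors recruit and erased by deacetylases. The glucocorticoid receptor is a ligand-activated transcription factor that can raise nearby acetylation at the elements it binds and can also repress, in particular at genes driven by NF-κB and AP-1. CEBPB encodes C/EBPβ, a basic leucine zipper factor, and in myeloma cells glucocorticoids are a standard treatment that promotes cell death.

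Of all promoter windows in the RefSeq table (GRCh38.p14, 250 bp before to 50 bp after a start), 59 touched a lost bin, 39 of coding genes and 20 of long noncoding RNAs. The 6 printed next are those of the LPIN1, SLC29A1, ADAMTS7, ISLR and WIZ genes and of LINC01623, the members whose promoters the results return to. Each runs 5′ to 3′ along the gene's strand, and capitals mark the bases that lie inside lost bins. A window belongs to a listed start, which equals the outer end of the gene for 70.9% of windows. The LPIN1 and SLC29A1 windows lie inside their genes, whose first bases are at 11677544 and 44219615.
LPIN1 promoter, chr2:11746382-11746681, plus strand: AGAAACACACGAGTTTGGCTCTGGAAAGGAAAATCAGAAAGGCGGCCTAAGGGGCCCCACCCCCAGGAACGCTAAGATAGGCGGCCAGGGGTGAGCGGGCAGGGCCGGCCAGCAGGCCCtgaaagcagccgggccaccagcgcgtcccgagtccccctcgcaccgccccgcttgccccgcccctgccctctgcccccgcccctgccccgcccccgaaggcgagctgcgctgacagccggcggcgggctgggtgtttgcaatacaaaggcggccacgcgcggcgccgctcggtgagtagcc
SLC29A1 promoter, chr6:44223345-44223644, plus strand: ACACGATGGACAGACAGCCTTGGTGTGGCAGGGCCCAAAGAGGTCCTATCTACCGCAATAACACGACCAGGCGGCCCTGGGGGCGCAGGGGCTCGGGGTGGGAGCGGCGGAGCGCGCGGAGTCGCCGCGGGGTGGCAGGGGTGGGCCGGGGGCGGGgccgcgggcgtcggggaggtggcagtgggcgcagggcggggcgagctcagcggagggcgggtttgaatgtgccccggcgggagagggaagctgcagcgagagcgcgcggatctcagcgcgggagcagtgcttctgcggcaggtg
ADAMTS7 promoter, chr15:78811415-78811714, minus strand: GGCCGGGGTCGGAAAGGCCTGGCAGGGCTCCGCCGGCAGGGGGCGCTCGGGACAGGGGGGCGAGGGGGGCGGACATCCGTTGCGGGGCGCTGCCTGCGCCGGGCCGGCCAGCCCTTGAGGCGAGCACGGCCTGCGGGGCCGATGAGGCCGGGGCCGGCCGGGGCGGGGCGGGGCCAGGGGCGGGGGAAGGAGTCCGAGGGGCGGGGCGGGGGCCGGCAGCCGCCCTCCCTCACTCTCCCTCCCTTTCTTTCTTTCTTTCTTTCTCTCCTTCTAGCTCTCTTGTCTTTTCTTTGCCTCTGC
ISLR promoter, chr15:74173460-74173759, plus strand: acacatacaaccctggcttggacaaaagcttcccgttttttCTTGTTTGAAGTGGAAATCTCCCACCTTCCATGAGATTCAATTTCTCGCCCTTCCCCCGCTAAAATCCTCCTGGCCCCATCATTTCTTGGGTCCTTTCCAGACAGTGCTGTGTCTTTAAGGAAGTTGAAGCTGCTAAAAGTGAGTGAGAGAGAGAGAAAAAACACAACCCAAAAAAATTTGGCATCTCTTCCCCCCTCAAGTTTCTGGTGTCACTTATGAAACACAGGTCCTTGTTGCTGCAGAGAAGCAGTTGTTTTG
WIZ promoter, chr19:15449907-15450206, minus strand: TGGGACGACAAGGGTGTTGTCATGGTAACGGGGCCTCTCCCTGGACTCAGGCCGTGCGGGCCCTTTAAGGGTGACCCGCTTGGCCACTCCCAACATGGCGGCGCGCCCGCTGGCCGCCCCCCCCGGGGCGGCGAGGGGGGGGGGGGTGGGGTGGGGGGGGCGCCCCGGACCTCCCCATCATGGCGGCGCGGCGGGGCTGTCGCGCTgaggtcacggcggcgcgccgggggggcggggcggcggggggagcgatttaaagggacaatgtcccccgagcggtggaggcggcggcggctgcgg
LINC01623 promoter, chr6:28863628-28863927, minus strand: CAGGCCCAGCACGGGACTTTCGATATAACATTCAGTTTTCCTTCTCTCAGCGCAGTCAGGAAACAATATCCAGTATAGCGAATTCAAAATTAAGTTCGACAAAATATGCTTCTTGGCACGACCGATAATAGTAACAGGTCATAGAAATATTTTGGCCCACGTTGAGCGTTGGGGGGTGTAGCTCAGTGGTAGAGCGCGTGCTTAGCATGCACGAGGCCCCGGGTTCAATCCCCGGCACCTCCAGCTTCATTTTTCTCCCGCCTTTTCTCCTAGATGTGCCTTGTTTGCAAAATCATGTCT
The capitals show that the lost bins held the whole 300 bp window at ADAMTS7 and LINC01623, 259 bp of it at ISLR, 206 bp at WIZ, 156 bp at SLC29A1 and 119 bp at LPIN1. At LPIN1, SLC29A1 and WIZ the capitals stop before the start site, so the lost bins lay on the upstream side of the promoter there.

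A set of 7 sequence motifs was searched on both strands of the 300 bp windows, as a description. Windows of chromosome 8 were not used here. The glucocorticoid response element, searched by name with its palindromic consensus, was found in 0 of the 59 windows and in 0.392% of all 34961 windows. The NF-κB motif, searched by its consensus, was in 18 (30.5%) against 21.5% of all windows, and the C/EBP motif TTGCNNAA in 2 (3.39%) against 10.4%. AP-1 (TGANTCA) was found in 4 (6.78%) against 7.68% and ETS (CCGGAAG) in 6 (10.2%) against 10.3%. The E-box (CANNTG) was in 30 (50.8%) against 68.7%, and the interferon-stimulated response element core in 1 (1.69%) against 3.58%. The median GC content was 63.0% in the 59 windows and 58.7% in all windows, and the motifs may overlap each other. The 12813 windows that touched a bin present in all 12 libraries had a median GC content of 66.0%. Of them, 26.0% held the NF-κB motif, 6.57% C/EBP, 4.18% AP-1 and 21.3% ETS. The E-box was in 59.1%, the interferon-stimulated core in 2.75% and the glucocorticoid response element in 0.140%. Of the printed windows, LINC01623 holds a C/EBP match and ADAMTS7 and SLC29A1 an NF-κB match.

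Libraries with dexamethasone had less of the genome under peaks. The covered length was 58.9 ± 6.8 Mb (SD, n = 3) in scramble cells with DMSO and 52.7 ± 6.2 Mb with dexamethasone. In knockout cells it was 58.2 ± 5.5 Mb and 54.4 ± 4.0 Mb, and the groups overlapped in both genotypes. No read counts are in the peak lists, so the depth of each library is unknown. Of 11 plasma cell marker genes, 10 had a bin present in all 12 libraries within 5 kb (SLAMF7 had none), as did 2 of 6 T cell, 3 of 6 myeloid, 2 of 5 mature B cell and 5 of 6 stromal or epithelial markers.

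Lost bins outnumbered gained ones as the peaks were deposited, but the order turned when the libraries were set to equal coverage. The mirrored rule gave 983 gained bins (0.335% of all bins), so there were 1657 lost bins to 983 gained. When the weakest peaks were removed until every library covered 48.0 Mb, the counts were 782 lost and 1106 gained, and 631 of the 782 were among the 1657. With only peaks of −log10 q of at least 2 they were 595 and 792, with 358 of the 595 among the 1657. As a share of the bins present in at least 4 libraries of the treatment where they were common, 2.00% of 82648 were lost and 1.25% of 78671 were gained.

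The balance also depended on the size of the difference. Bins with a difference of 4 libraries numbered 1386 lost and 733 gained, and those with a difference of 5 numbered 256 and 177. Complete differences ran the other way, with 15 bins present in 6 of 6 DMSO and 0 of 6 dexamethasone libraries and 73 the reverse. Just outside the rule, 6179 bins had a difference of 3 toward DMSO and 3295 toward dexamethasone. Most lost bins therefore sat at the edge of the rule.

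**Figure D1:**
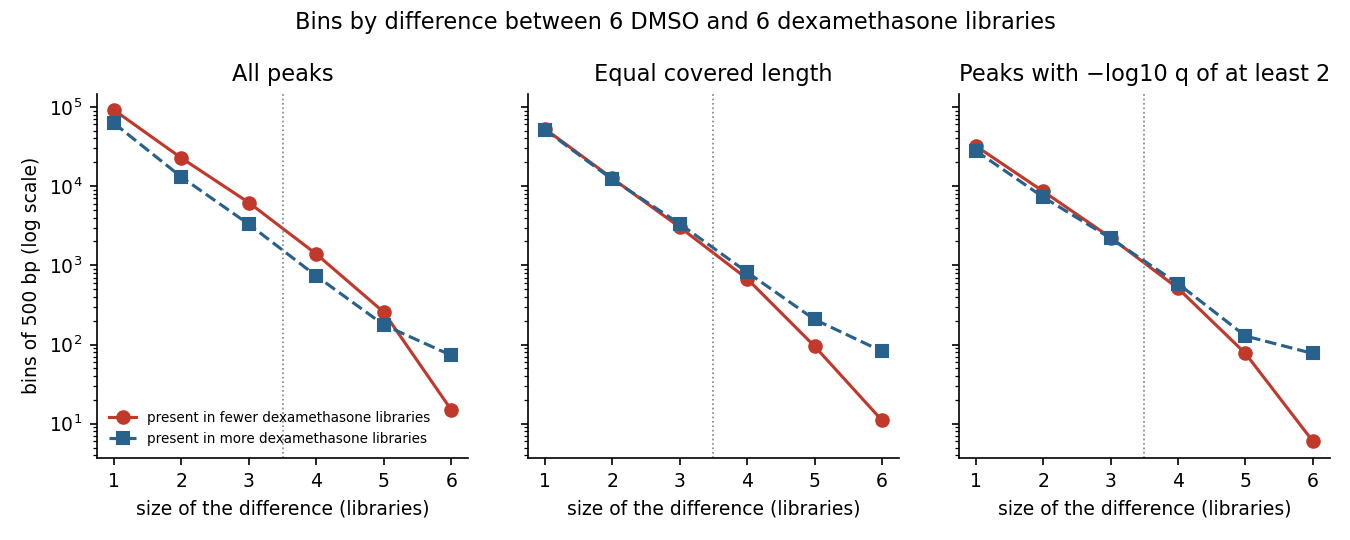
Number of 500 bp bins (log axis) by the size of the difference in libraries, for bins present in fewer (circles) or more (squares) dexamethasone libraries, with all peaks, with equal covered length and with strong peaks. With all peaks the circles lie above the squares up to a difference of 5 and below them at 6 (15 against 73). With equal covered length the counts at 4 libraries are 676 and 817; the dotted line marks the rule.

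Both genotypes contributed to the list in like numbers. The most common make-up was a bin in 4 DMSO and 0 dexamethasone libraries (653 bins), followed by 5 and 1 (442), 6 and 2 (291), 5 and 0 (169), 6 and 1 (87) and 6 and 0 (15). The drug difference was larger in scramble cells for 417 bins, larger in knockout cells for 475 and equal for 765. A complete difference of 3 of 3 to 0 of 3 was seen in scramble cells for 432 bins and in knockout cells for 490. By arithmetic the rule needs a difference of at least 1 library in each genotype, so it could not take a bin lost in 1 genotype alone.

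In scramble cells, 1366, 1288 and 1311 of the lost bins were present in the 3 DMSO libraries and 276, 146 and 147 in the dexamethasone libraries. In knockout cells the counts were 1278, 1320 and 1462 with DMSO and 178, 217 and 147 with dexamethasone. Scramble dexamethasone library 1 held the most lost bins of the treated libraries, and knockout DMSO library 3 the most of the untreated ones. Each of these 2 libraries also had the largest covered length of its group, 59.7 and 64.5 Mb. Scramble DMSO library 1 had the largest of all, 66.4 Mb.

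Presence is a threshold on coverage, and many lost bins kept some coverage with the drug. The median lost bin was covered over 334 bp on average in DMSO libraries and 76.8 bp in dexamethasone libraries. Of all values of lost bins in dexamethasone libraries, 66.0% were 0 bp, 22.9% were above 0 but under 250 bp and 11.2% were 250 bp or more. Only 410 bins (24.7%) had 0 bp in all 6 dexamethasone libraries, and 156 differed by less than 150 bp between the treatment means. The covered lengths of the 6 DMSO and 6 dexamethasone libraries did not overlap for 52 lost bins (3.14%) and for 143 gained bins (14.5%). Over all bins, every DMSO value exceeded every dexamethasone value at 106 (0.0362%), and the reverse held at 237 (0.0809%). The rule favours such bins, so nothing is read from these shares.

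**Figure D2:**
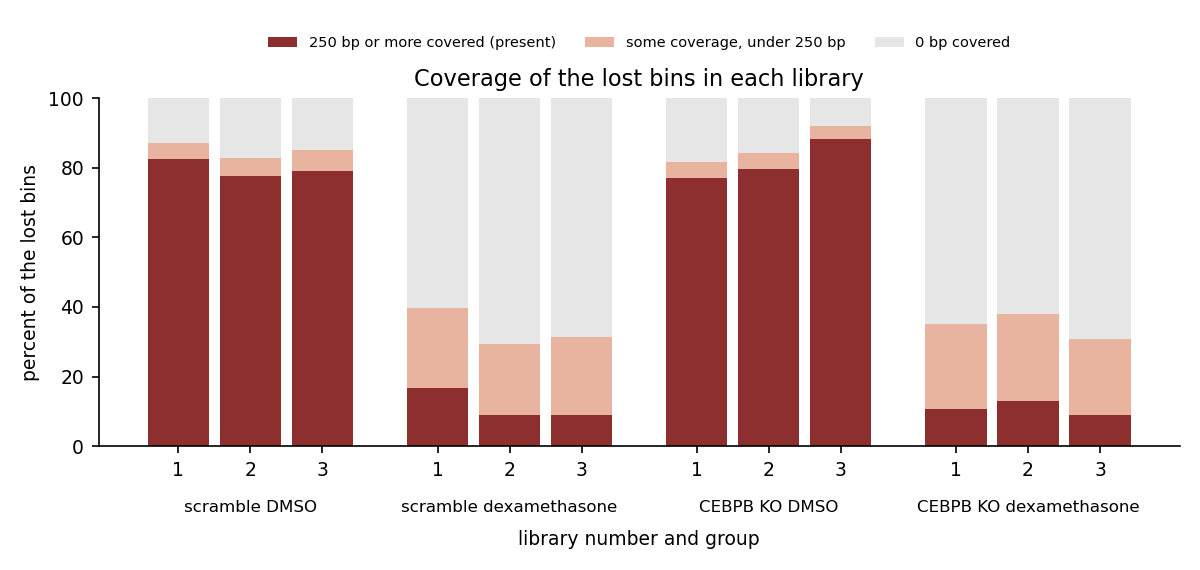
Percent of the 1657 lost bins with at least 250 bp, some but under 250 bp, or 0 bp covered by peaks in each library, by group. The dark share is 77.1 to 88.2% in DMSO libraries and 8.81 to 16.7% in dexamethasone libraries, as the rule requires, and a band of partly covered bins remains in every dexamethasone library.

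Lost bins lay under weak peaks. Over the 6 DMSO libraries, the median −log10 q of peaks that covered lost bins was between 1.35 and 1.70 (median 1.52), where that of all peaks was between 2.36 and 3.47 (median 3.02). Peaks over bins present in all 12 libraries had a median of 15.8. Choosing bins by absence or presence in libraries can itself favour weak or strong peaks. Peak strength was not read for bins in 4 to 8 libraries, so weakness is not shown to be particular to lost bins. Gained bins lay under stronger peaks than lost bins did, with a median −log10 q of 3.47 in the dexamethasone libraries. All peaks of the dexamethasone libraries had a median of 3.78, so the baselines of the treatments differ. The fold enrichment of peaks over lost bins was 2.93 at the median, against 3.37 for all peaks of the DMSO libraries. Peaks over a set of bins were counted once for each bin they cover and all peaks once each, so wide peaks weigh more in the former. Strong peaks, those with −log10 q of at least 2, made up 36.9% of peaks over lost bins and 60.2% of all peaks of DMSO libraries.

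**Figure D3:**
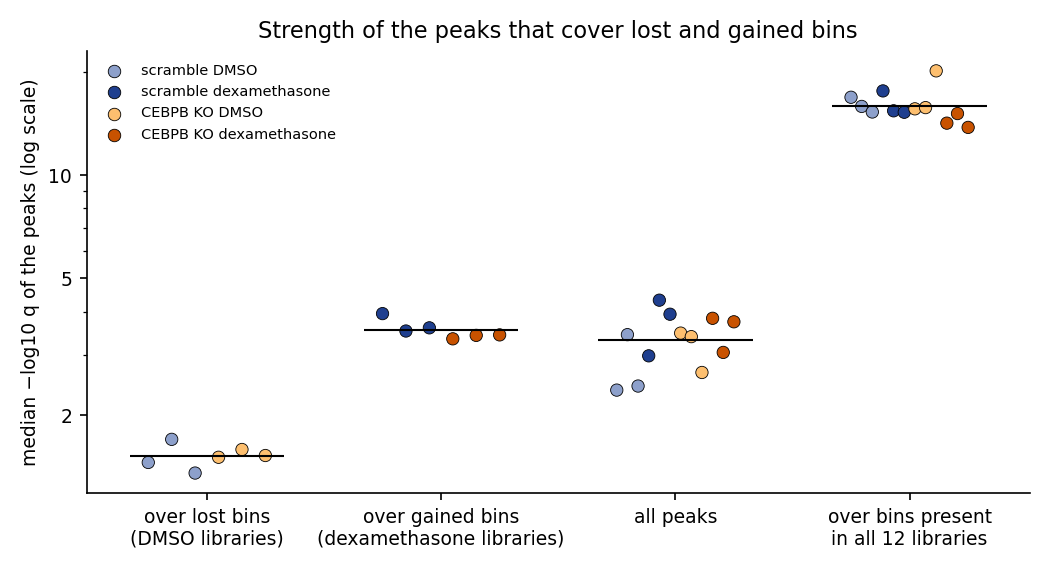
Median −log10 q (log axis) of the authors' peaks over lost bins in the 6 DMSO libraries, over gained bins in the 6 dexamethasone libraries, of all peaks and of peaks over bins present in all 12 libraries. Each point is a library and the line is the mean; the points of lost bins lie between 1.35 and 1.70, below those of all peaks.

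Lost bins lay mostly away from start sites, as did all bins. For the 1619 lost bins outside chromosome 8, whose start sites were not used here, 93 (5.74%) were within 1 kb of a coding gene's start, 985 (60.8%) elsewhere in a coding gene and 541 (33.4%) outside coding genes. Over all bins the shares were 10.8%, 56.4% and 32.8%. Gained bins were split 6.63%, 52.5% and 40.8%, and bins present in 4 to 8 libraries, which are as variable, 7.46%, 57.2% and 35.4%. The bins present in all 12 libraries stood apart, with 38.6% near a start. Exons and introns were not separated.

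The lost bins were also less often beside a constant peak than gained bins were. Of them, 223 (13.8%) adjoined a bin present in all 12 libraries, against 25.5% of gained bins, 16.9% of bins in 4 to 8 libraries and 23% of all bins. The share of all bins includes the bins present in all 12 libraries, of which 83.8% adjoined another such bin. It is therefore no baseline for the lost bins. Within 2.5 kb the shares were 20.4% for lost and 36.8% for gained bins. By chromosome, lost bins made up 0.414 to 0.723% of all bins and 1.30 to 2.96% of bins present in at least 4 DMSO libraries. These are descriptions of lists of unequal strength and carry no test.

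Adjoining lost bins formed 1363 runs, of which 1151 were a single bin, 144 had 2 bins, 54 had 3 and 14 had 4. The longest were thus 2000 bp, and the longest gained run had 6 bins. Coding genes contained 916 of the runs, and 52 runs touched a promoter window, with those of chromosome 8 not used here. Runs are named below by the nearest coding gene, which need not be the gene they act on, with positions in hg38. They comprise 12 of the 14 runs of 4 bins, 12 of the 15 with a 6-to-0 bin, 10 at promoters and those nearest to listed genes, 55 in all. Of the 55, 50 had some coverage in a dexamethasone library. They were picked in part for being long or complete and do not stand for the lost bins at large.

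Among the 12 named runs of 4 bins, the one inside LIMS1, which encodes the focal adhesion adaptor PINCH1, was the only one with no coverage in any treated library (chr2:108613501-108615500). Peaks covered 1119, 420 and 2000 bp of it in the scramble DMSO libraries and 1906, 2000 and 1952 bp in the knockout DMSO libraries. All 6 dexamethasone libraries had 0 bp. The groups do not overlap, although scramble DMSO library 2 is low.

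The run in ITGB5, the integrin β5 gene (chr3:124813501-124815500), was covered over 2000, 2000 and 0 bp in scramble DMSO and 1789, 2000 and 1802 bp in knockout DMSO libraries. With dexamethasone only scramble library 3 had coverage, 322 bp. Scramble DMSO library 3 was thus as low as the treated libraries. In ATP6V1C2, which encodes a subunit of the vacuolar proton pump (chr2:10776501-10778500), the DMSO values were 515, 1932 and 1473 bp in scramble and 1840, 1818 and 1882 bp in knockout cells. Dexamethasone left 602 bp in scramble library 1 and 0 bp in the other 5, so that the groups overlap by 1 library. The same run is the one lost region near PDIA6, a protein disulfide isomerase of the endoplasmic reticulum.

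IRF2, which encodes an interferon regulatory factor, had 7 lost bins within 25 kb of the gene, as many as MYO5A, the gene of a myosin motor, and 1 more than PIP4K2A, a lipid kinase gene. These 3 were picked after their counts were seen. At the longer IRF2 run (chr4:184403501-184405500), scramble DMSO libraries had 2000, 2000 and 1980 bp and scramble dexamethasone libraries 2000, 196 and 2000 bp. Knockout DMSO libraries had 1868, 2000 and 2000 bp and knockout dexamethasone libraries 52, 157 and 164 bp. The difference at IRF2 was complete in knockout cells and was carried by 1 of 3 libraries in scramble cells.

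The runs near POTEG (chr14:19304001-19306000) and AGPS (chr2:177330501-177332500) were also uneven between genotypes. POTEG belongs to a family of near-identical copies, so its reads may be shared among them. All 6 DMSO libraries had 1967 to 2000 bp at POTEG, and scramble dexamethasone library 1 had 1994 bp where the other 5 treated libraries had 0 to 250 bp. At AGPS, whose product acts in ether lipid synthesis, scramble DMSO libraries had 2000, 0 and 0 bp, and knockout DMSO libraries had 1872, 1981 and 1992 bp. Its treated libraries had 0 to 223 bp.

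Several long runs had both nearly full and nearly empty DMSO libraries. Near TENT5C, a noncanonical poly(A) polymerase gene that is often mutated in myeloma, the run at chr1:117672501-117674500 was covered over 2000, 357 and 2000 bp in scramble DMSO libraries and 2000, 300 and 2000 bp in knockout DMSO libraries. The 6 treated libraries had 162 to 377 bp there, a range that takes in the 2 low DMSO values. Runs near SPN, SLC5A6, SGTB and CCDC171 likewise had 2 DMSO libraries under 400 bp, and that near LDLRAD2 had 1. The LDLRAD2 run was also fully covered, over 2000 bp, in scramble dexamethasone library 3. SPN encodes the leukocyte surface protein CD43.

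**Figure D4:**
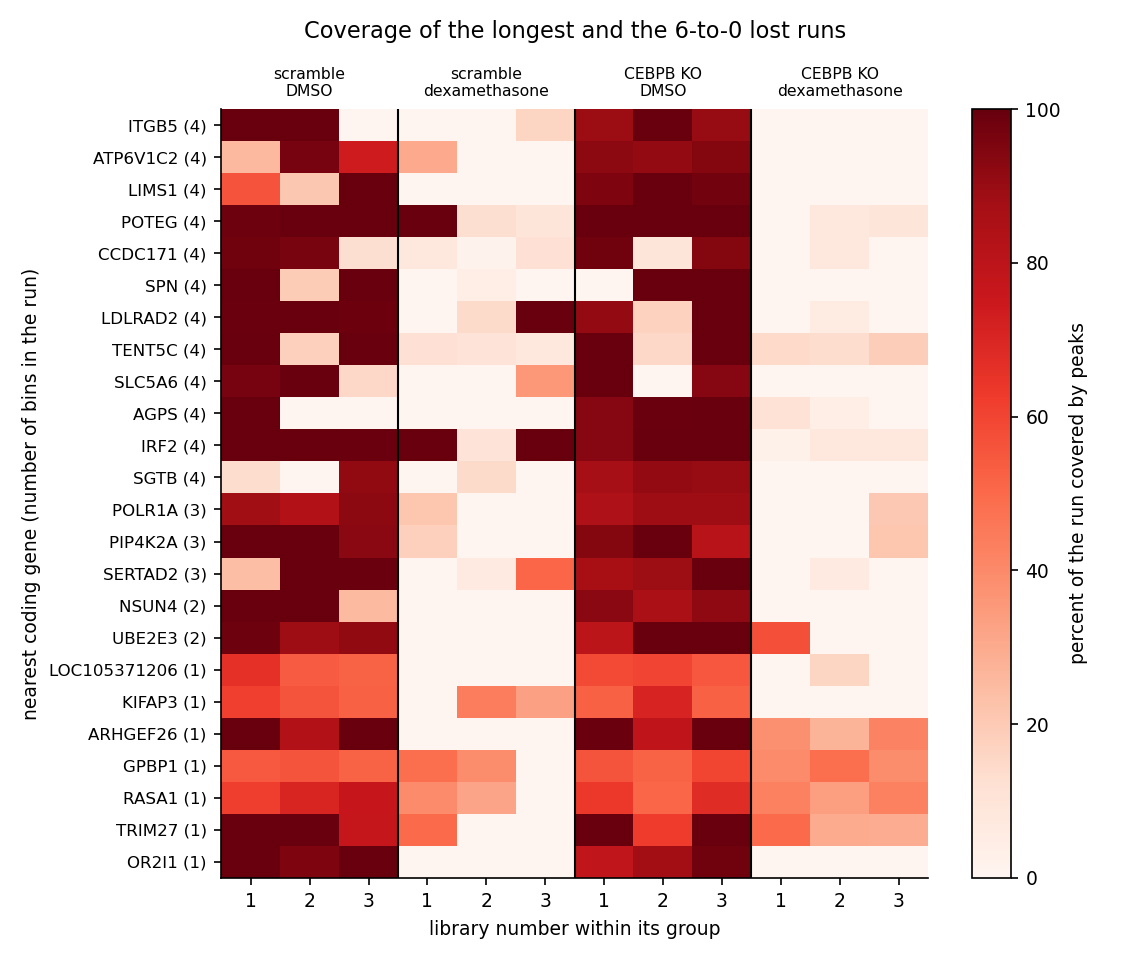
Percent of each run covered by peaks in each of the 12 libraries for 12 of the 14 longest lost runs and 12 runs with a bin in 6 of 6 DMSO and 0 of 6 dexamethasone libraries, with the number of bins in parentheses. Columns are libraries in 4 groups and darker red is more coverage. Most DMSO columns are darker than the treated ones, with exceptions. Treated libraries are full at IRF2 (scramble 1 and 3) and LDLRAD2 (scramble 3) and nearly so at POTEG (scramble 1). Among other runs, 2 DMSO libraries each are low at AGPS, TENT5C, SPN, SLC5A6, SGTB and CCDC171, and GPBP1 and RASA1 differ little.

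Complete 6-to-0 bins were few, and some of them turned on small differences around 250 bp. The clearest was near OR2I1, an olfactory receptor gene (chr6:29531001-29531500). Scramble DMSO libraries had 500, 476 and 500 bp and knockout DMSO libraries 391, 439 and 490 bp. All 6 dexamethasone libraries had 0 bp. In a single 6-to-0 bin the treatments cannot overlap, by the choice of the bin. At NSUN4, which encodes a mitochondrial RNA methyltransferase (chr1:46378501-46379500), the values were 1000, 1000 and 253 bp in scramble DMSO, 929, 855 and 917 bp in knockout DMSO and 0 bp in every treated library.

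The run within PIP4K2A (chr10:22650001-22651500) was covered over 1500, 1500 and 1390 bp in scramble DMSO and 1412, 1500 and 1224 bp in knockout DMSO libraries. Treated libraries had 265, 0 and 0 bp in scramble and 0, 0 and 322 bp in knockout cells. POLR1A, which encodes the largest subunit of RNA polymerase I (chr2:86051501-86053000), was similar, with 1249 to 1380 bp in the 6 DMSO libraries and 0 to 320 bp in the treated ones. Neither gene's run overlapped between treatments. In contrast, the bin in GPBP1 (chr5:57218001-57218500) had 259 to 297 bp in DMSO libraries and 0 to 243 bp in treated ones, and that near RASA1 (chr5:87136001-87136500) 252 to 381 bp and 0 to 214 bp. These 2 bins differ in presence in every library while 5 of 6 treated libraries still had a peak there.

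Of the 10 named promoter runs, 9 had some coverage in at least 1 treated library. At LINC01623, a long noncoding RNA whose window is printed above, DMSO libraries had 500, 498 and 384 bp in scramble and 500, 311 and 500 bp in knockout cells. Treated libraries had 247, 0 and 0 bp and 247, 149 and 147 bp. This is a single 6-to-0 bin, so the treatments cannot overlap, and 4 of the 6 treated libraries kept some coverage.

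LPIN1 encodes lipin 1, a phosphatidate phosphatase and a known glucocorticoid-induced gene. The run at its printed window (chr2:11745001-11746500) lies inside the gene, whose first base is at 11677544. It was covered over 0, 1500 and 1500 bp in scramble DMSO libraries and 1500 bp in all 3 knockout DMSO libraries. Treated libraries had 18, 2 and 0 bp in scramble cells and 0 bp in knockout cells. Scramble DMSO library 1 alone lacked it among untreated libraries. The run adjoined bins present in all 12 libraries, and the gene's window also held 2 gained bins.

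At the printed window of SLC29A1, the gene of the nucleoside transporter ENT1 (chr6:44222001-44223500), all 6 DMSO libraries had 1500 bp. This window too lies inside its gene. Scramble dexamethasone libraries had 0, 19 and 67 bp, and knockout dexamethasone libraries 1500, 1500 and 0 bp. The difference was complete in scramble cells and rested on 1 library in knockout cells. KCNH2, which encodes a potassium channel, showed another uneven pattern (chr7:150955001-150956500). Its run also lies inside the gene, which spans 150944961 to 150978321. Its scramble DMSO libraries had 1498, 1493 and 1500 bp, its knockout DMSO libraries 0, 0 and 1500 bp, and no treated library had any coverage.

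ADAMTS7, the gene of a secreted metalloprotease, had 425, 531 and 826 bp in scramble DMSO and 691, 513 and 1000 bp in knockout DMSO libraries (chr15:78811001-78812000). With dexamethasone it had 0, 621 and 0 bp and 0, 280 and 267 bp, so scramble dexamethasone library 2 overlaps the untreated range. ISLR (chr15:74173501-74174000) and WIZ (chr19:15450001-15450500), a zinc finger gene, had small differences. ISLR had 406, 274 and 396 bp and 0, 308 and 266 bp with DMSO, and 232, 212 and 58 bp and 0 bp in all 3 knockout libraries with the drug. WIZ had 168, 291 and 298 bp and 291, 453 and 500 bp with DMSO, and 196, 144 and 163 bp and 0, 217 and 162 bp with the drug.

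Gene lists were read by counting the genes with a lost bin between 25 kb before and 25 kb after the gene, beside the same count over all 19974 coding genes, of which 8.96% had a lost and 4.59% a gained bin. Per 1000 bins in these windows, 5.87 were lost and 2.91 gained. Neighbouring genes can share a bin, which the rates per 1000 count once for each gene, and long genes have long windows. The alternatives given for the lists were chosen after the data were seen. Leaving out 1 library moved the share of all coding genes with a lost bin between 2.54 and 14.0%, since it changes how many libraries can differ. Among genes of NF-κB signalling and inflammation, 8 of 35 (22.9%) had a lost bin and 1 (2.86%) a gained one, at 16.8 lost bins per 1000. The members were the cytokine genes TNF, LTA and LTB, the chemokine gene CXCL8, the NF-κB subunit gene RELB, the inhibitor gene NFKBIE, the feedback deubiquitinase gene TNFAIP3 and the adaptor gene TRAF1. TNF, LTA and LTB share the same 2 bins, so the rate of 16.8 counts these bins once for each of the genes. The count depended on the setting. It was 5 of 35 (14.3%, against 4.71% of all coding genes) with equal covered length, 2 of 35 (5.71% against 3.53%) with strong peaks alone and 5 of 35 (14.3% against 8.95%) with bins shifted by 250 bp, and only TNFAIP3 and RELB of the 8 were then still counted. Leaving out 1 library gave 0 to 12 genes, with 0 when knockout DMSO library 3 was left out, where the share of all coding genes was 2.54%.

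Of the 2 bins near TNF, the one inside LTA (chr6:31568001-31568500) was covered over 500, 500 and 481 bp in scramble DMSO and 500 bp in each knockout DMSO library. Scramble dexamethasone libraries had 47, 47 and 0 bp. Knockout dexamethasone libraries had 500, 500 and 159 bp, so the bin was absent with the drug in all 3 scramble libraries and in 1 knockout library. The other bin (chr6:31559501-31560000) had 368 to 500 bp in the 6 DMSO libraries. With the drug it had 365, 0 and 0 bp in scramble and 165, 500 and 0 bp in knockout libraries, so 1 knockout library was fully covered. The bin beside CXCL8, the interleukin 8 gene (chr4:73718001-73718500), had 488, 0 and 500 bp and 500, 0 and 434 bp with DMSO and at most 124 bp with the drug. DMSO library 2 lacked it in both genotypes.

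Of 44 genes known to be induced by glucocorticoids, 5 (11.4%) had a lost bin, namely LPIN1, BCL2L11, FOXO3, PER2 and MAP3K6, and 12 (27.3%) a gained one. Per 1000 bins, 8.56 were lost and 32.5 gained, against 5.87 and 2.91 for all coding genes. With equal covered length the genes numbered 3 (6.82% against 4.71%) and 12 (27.3% against 4.95%), and with strong peaks 2 (4.55% against 3.53%) and 11 of 44 (against 3.42% of all coding genes). With 1 library left out they ranged from 1 to 7 with a lost and from 7 to 16 with a gained bin, and were equal, 7 and 7, without scramble dexamethasone library 2. BCL2L11, which encodes the death-promoting BCL2 family protein BIM, had its lost run inside the gene (chr2:111155501-111157000). It was covered over 1500, 1500 and 0 bp in scramble DMSO and 1500, 1354 and 0 bp in knockout DMSO libraries, and at most 100 bp in any treated library. DMSO library 3 had 0 bp in both genotypes.

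In FOXO3, a forkhead factor gene (chr6:108626001-108627000), scramble DMSO libraries had 1000 bp each and scramble dexamethasone libraries 64, 18 and 0 bp. Knockout libraries were mixed, with 0, 1000 and 1000 bp untreated and 1000, 0 and 0 bp treated. The survival gene BCL2L1 was the other member of the BCL2 family, of which 2 of 16 (12.5%) had a lost bin, at 11.9 lost bins per 1000, and 1 or 2 with any 1 library left out. Its run (chr20:31665501-31667000) had 1315 to 1500 bp in the 6 DMSO libraries, 1393, 0 and 926 bp in scramble and 0, 0 and 131 bp in knockout libraries with the drug. The BCL2L1 values thus overlapped between treatments in scramble cells and did not in knockout cells, and this genotype difference was not tested.

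Cell cycle genes had a lost bin in 5 of 25 cases, with 2 (8.00%) having a gained one, at 19.5 lost bins per 1000. They were the phosphatase gene CDC25A, the helicase subunit genes MCM2 and MCM5, the cyclin gene CCNB2 and the mitotic kinase gene AURKA. With equal covered length or strong peaks alone 1 of 25 (4.00%) was counted, near the 4.71% and 3.53% of all coding genes. Leaving out 1 library gave 3 to 5. The MCM5 run (chr22:35418001-35419500) was covered over 1228 to 1500 bp in all 6 DMSO libraries, and of the treated libraries only scramble library 3 had coverage, 1363 bp. The run in CDC25A (chr3:48159001-48160000) had 1000, 923 and 1000 bp in scramble DMSO and 1000, 316 and 856 bp in knockout DMSO libraries. Treated libraries had 284, 0 and 399 bp in scramble and 0 bp in knockout cells.

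Lymphocyte signalling genes had a lost bin in 5 of 27 (18.5%), which were the kinase genes CSK and BTK, the exchange factor genes VAV1 and DOCK2 and the receptor component gene CD79A, and 1 had a gained bin. These genes are long, with a median window of 147 kb against 74.2 kb, and per 1000 bins 4.93 were lost, below the 5.87 of all coding genes. With equal covered length 4 genes were counted (14.8% against 4.71%) and with strong peaks 4 (14.8% against 3.53%). Leaving out 1 library gave 0 to 8, with 0 without any 1 of the 3 scramble DMSO libraries. At VAV1 (chr19:6821501-6822000) the 6 DMSO libraries had 310 to 377 bp, and the treated ones 375, 171 and 283 bp in scramble and 173, 99 and 189 bp in knockout cells. The CSK bin (chr15:74799001-74799500) adjoined a bin present in all 12 libraries and had 419 to 500 bp with DMSO and 127 to 500 bp with the drug. Both bins thus kept coverage in every treated library.

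Plasma cell and myeloma genes had lost bins in 5 of 30 (16.7%) and gained bins in 6 of 30. Per 1000 bins, 5.92 were lost, near the 5.87 of all coding genes. The count was 4 (13.3% against 4.71%) with equal covered length, 1 (3.33% against 3.53%) with strong peaks and 0 to 9 with 1 library left out, the 0 without knockout DMSO library 1 or 2. The lost ones were near the surface receptor genes SLAMF7 and TNFRSF17, the histone methyltransferase gene NSD2 and the transcription factor genes IKZF1 and MEF2B. IKZF1 (chr7:50363001-50363500) had 449, 0 and 500 bp and 378, 500 and 378 bp with DMSO and, with the drug, 322 bp in scramble library 2 alone. At SLAMF7 (chr1:160767501-160768000) the DMSO range was 130 to 475 bp and the treated range 0 to 200 bp, so the treatments overlap.

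Of 23 genes of cholesterol synthesis and glycolysis, 4 (17.4%) had a lost bin: PFKFB3, which makes a glycolytic activator, the sterol regulator genes SREBF1 and SREBF2, and PGK1. Per 1000 bins 8.03 were lost. None of the 4 genes was counted with strong peaks or with equal covered length, where PKM alone was (4.35% against 4.71%). Leaving out 1 library gave 0 to 7, with 0 without DMSO library 3 of either genotype. The SREBF2 bin (chr22:41839001-41839500) was covered over 397, 225 and 250 bp in scramble DMSO and 500, 92 and 302 bp in knockout DMSO libraries and had 0 bp in every treated library. Housekeeping genes had 3 of 25 (12.0%), immediate early and AP-1 genes 1 of 20 (5.00%, BATF3), the unfolded protein response 1 of 24 (4.17%, PDIA6) and adhesion and migration genes 0 of 24. Neither CEBPB nor NR3C1, the glucocorticoid receptor gene, had a lost or a gained bin within 25 kb, though 16 and 30 bins were present there.

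Whether a loss seen in one genotype was found in the other can be tested, since libraries of the second genotype took no part in choosing bins of the first. Bins present in 3 of 3 DMSO and 0 of 3 dexamethasone libraries numbered 1242 in scramble cells (0.424% of all bins) and 1330 in knockout cells (0.454%). Only 15 were in both lists, 1.21% of the scramble list and 1.13% of the knockout list. Of the gained lists, 1009 in scramble (0.344%) and 996 in knockout cells (0.340%), 73 bins were in both, 7.23% and 7.33%. Complete losses in scramble cells were complete gains in knockout cells at 8 bins, and the reverse held at 5.

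The scramble-lost bins were somewhat more often present in untreated than in treated knockout libraries. Of the 1242 bins, 38.9, 39.8 and 49.6% were present in the 3 knockout DMSO libraries and 32.7, 37.0 and 32.4% in the knockout dexamethasone libraries. Relative to all bins present in each library, this was a log2 difference of 0.23, or 1.17-fold, and the values did not overlap (exact permutation p = 0.1). The knockout-lost bins read in scramble cells were present at 44.7, 41.3 and 40.8% with DMSO and 39.7, 29.5 and 31.1% with the drug, a log2 difference of 0.19, or 1.14-fold (exact permutation p = 0.1). For the gained lists the DMSO minus dexamethasone differences were −0.55 and −0.75 on the same log2 scale.

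The ratio of lost to gained bins present in a library compares 2 lists within the same library, and it was the value tested. For lists chosen in scramble cells, log2 of this ratio was 0.66, 0.68 and 0.71 in knockout DMSO libraries and −0.11, −0.10 and −0.08 in knockout dexamethasone libraries, a difference of 0.78. For lists chosen in knockout cells it was 0.61, 1.49 and 1.40 in scramble DMSO and 0.30, 0.20 and 0.19 in scramble dexamethasone libraries, a difference of 0.94. Each gave p = 0.1 in an exact two-sided permutation test, which is the smallest p that 3 libraries against 3 can give, and 0.15 after Benjamini-Hochberg adjustment over the 3 tests. All DMSO libraries lay above all dexamethasone libraries in both directions, and scramble DMSO library 1 was nearest to the treated ones. Most of each difference came from the gained lists, since the lost lists alone gave 0.23 and 0.19. With equal covered length the differences were 0.69 and 0.96.

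**Figure D5:**
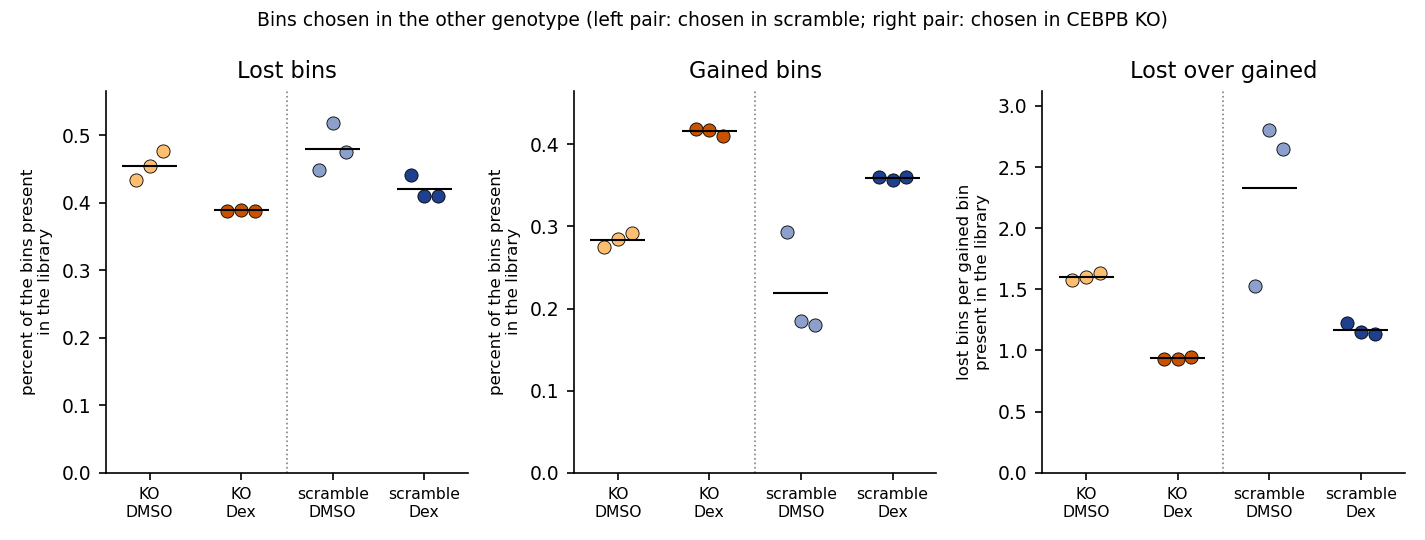
Bins with a complete loss (left) or gain (middle) in the other genotype, as percent of all bins present in each library, and lost bins per gained bin (right). In each panel the left pair is knockout libraries read with scramble lists and the right pair the reverse; points are libraries and lines means. Lost bins per gained bin are lower in every dexamethasone library than in every DMSO library of the same genotype.

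As a share of the bins present in each library, the lost bins made up 1.03, 1.22 and 1.15% in scramble DMSO libraries and 1.15, 1.21 and 1.13% in knockout DMSO libraries. In treated libraries the shares were 0.231, 0.152 and 0.146% in scramble and 0.170, 0.184 and 0.142% in knockout cells. The knockout minus scramble difference was 0.011 percentage points, with p = 0.745 in an exact two-sided permutation test stratified by treatment (adjusted p = 0.745, smallest possible p = 0.005). The rule needs a difference between treatments in both genotypes and so largely fixes this outcome, and nothing is read from it. The sign turned when any of 6 single libraries was left out.

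Genotype differences at the lost bins were then tested on loci, the merged peaks of all 12 libraries, with limma on log2(covered bp + 100). Of 59735 loci covered in at least 3 libraries, 1353 held a lost bin. With an adjusted p under 0.05, 8735 loci (14.6%) differed between knockout and scramble cells averaged over treatments, 4367 higher (7.31%) and 4368 lower (7.31%) in knockout cells. Of the 1353 lost loci, 72 (5.32%) differed, 45 higher and 27 lower. Under DMSO alone, 5140 loci (8.60%) differed, 2367 higher (3.96%) and 2773 lower (4.64%), among them 25 of the 1353 (1.85%), 17 higher and 8 lower. The smaller shares at lost loci carry no test, since a bin needs like presence in both genotypes to be chosen. The median log2 difference was 0.03 at lost loci and 0.01 at all loci.

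The largest of these genotype differences was at INHBE, which encodes an inhibin subunit (chr12:57452608-57456451). Knockout DMSO libraries had 3664, 3705 and 3633 bp there and knockout dexamethasone libraries 3599, 1774 and 3259 bp. Scramble libraries had 274, 0 and 461 bp with DMSO and 1422, 0 and 0 bp with the drug. The limma log2 difference was 3.92 ± 0.70 (SE, adjusted p = 0.0037), and all 6 knockout libraries exceeded all 6 scramble libraries.

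RUNX2, a transcription factor gene, had its locus (chr6:45421530-45424571) covered over 1684, 2725 and 2960 bp in knockout DMSO and 859, 1665 and 985 bp in knockout dexamethasone libraries. In scramble cells, DMSO library 2 had 1649 bp, dexamethasone library 1 had 366 bp and the other 4 had 0 bp (limma log2 difference 3.20 ± 0.70, adjusted p = 0.011). Loci in AGBL3 (3.44) and STN1 (3.30) were likewise higher in knockout cells, STN1 encoding a telomere capping protein. SH3PXD2B, which encodes an invadopodia scaffold, led the lower ones (chr5:172452453-172455095). Its locus had 647, 2335 and 1380 bp and 1610, 923 and 1439 bp in scramble cells with DMSO and the drug, and 420, 0 and 412 bp and 0 bp throughout in knockout cells (limma log2 difference −3.15 ± 0.47, adjusted p = 0.0011).

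A test of the difference between the drug responses, added after the data were seen, called 168 of all loci (0.281%), 78 more positive (0.131%) and 90 more negative (0.151%) in knockout cells, and 6 of the 1353 lost loci (0.443%), 4 more positive and 2 more negative. The number called over all loci moved with the setting. It was 20 with a replicate block, 91 with an offset of 500 bp and 413 without normalisation. Without a filter on libraries it was 42 of 103542 loci, and with strong peaks alone 381 of 35262. Leaving out 1 library gave 55 to 151. At the locus inside IMPA2, an inositol monophosphatase gene (chr18:11995188-11998321), scramble DMSO libraries had 2156, 2621 and 720 bp and scramble dexamethasone libraries 0 bp. Knockout libraries had 1599, 2955 and 2194 bp with DMSO and 2823, 1754 and 1840 bp with the drug. At the FADS2 locus, in a fatty acid desaturase gene (chr11:61840174-61843169), it was the knockout cells that had 0 bp with the drug, after 2140, 2426 and 1046 bp with DMSO. Scramble cells had 551, 607 and 614 bp with DMSO and 458, 285 and 372 bp with dexamethasone there. FADS2 and ICA1L, the 2 negative calls at lost loci, were not called with a replicate block, an offset of 500 bp or no filter, nor without knockout DMSO library 1 or 2 or any 1 knockout dexamethasone library.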

How the data were processed

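H3K27ac CUT&RUN peaks of 12 libraries were read from the deposited broad peak lists. The submitters' processing notes name Bowtie2 2.4.2, MACS3 3.0 and the hg38 build; no control library is named in the sources used here. The other deposited values used were 0-based interval positions. The score column in the deposited files is a number derived from the q-value and was not used. The fold enrichment in the deposited lists is a ratio over local background. Strength was read from the deposited −log10 q column, with the fold enrichment beside it. The authors gave no counts, so no counting interval could be given.

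Bins, runs and locus coverage were computed in Python 3.11.15 (NumPy 2.4.6, pandas 2.3.3, Matplotlib 3.10.9). Positions are printed 1-based. Libraries were grouped by genotype and treatment from the labels, and no 2 libraries had the same bin state in more than 83.4% of bins. Loci were fitted with limma 3.58.1 in R 4.3.3 (trend and robust options, quantile normalisation, offset 100 bp, 8 residual degrees of freedom, Benjamini-Hochberg over all loci, threshold 0.05), tested on simulated data. Other tests were exact permutations over libraries.

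Named runs are 12 of the 14 longest (ties by mean difference, then position), up to 12 with a 6-to-0 bin, up to 10 at promoters and the leading runs near listed genes. Members, lists and rules were chosen with earlier results of these data known. Alternatives changed the bin size, frame and coverage, the peak threshold, the covered length, the locus fit and the libraries.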

Additional observations from a re-analysis of the deposited data

Results flagged for a closer look

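At 6 loci that hold a lost bin, the response to dexamethasone differed between the genotypes in a direct limma test of that difference (interaction, adjusted over 59735 loci). Positive values mean a more positive drug response in knockout cells. The locus 40.1 kb from AGPS (log2 4.63, SE 0.69, adjusted p = 0.036) had a mean of 2791 bp with DMSO and 115 bp with the drug in scramble cells, and 2087 and 2412 bp in knockout cells. It lies apart from the AGPS run described in the report. The IMPA2 locus (4.05, SE 0.59, adjusted p = 0.034) and the FADS2 locus (−3.84, SE 0.56, adjusted p = 0.035) are given there by library. The ICA1L locus (−3.00, SE 0.45, adjusted p = 0.038) had 946 and 963 bp in scramble cells, and 706 bp and then 0 bp in knockout cells. At 2 loci besides AGPS, the mean covered length was larger with the drug in knockout cells although a bin within the locus was lost. The BMPR2 locus (0.79, SE 0.11, adjusted p = 0.028) had 2249 and 3856 bp in knockout cells, and the SMYD3 locus (0.50, SE 0.050, adjusted p = 0.0077) had 5758 and 7674 bp.

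The number of lost loci called this way was 2 with a replicate block, 2 with an offset of 500 bp and 3 without a filter. It was 1 to 8 with 1 library left out, the lowest without knockout DMSO library 1. With strong peaks it was 9, but of 568 lost loci among 35262 tested. The 2 negative calls, FADS2 and ICA1L, were absent with the replicate block, the larger offset and no filter.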

How the results depend on the processing

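The lost and gained counts moved with most settings. Lost bins numbered 755 with bins of 1000 bp, 595 with strong peaks, 782 with equal covered length, and 7836, 271 and 15 with a difference of 3, 5 and 6 libraries; leaving out 1 library gave 450 to 2814. Gained bins numbered 447 with bins of 1000 bp, 4278, 250 and 73 with a difference of 3, 5 and 6 libraries, and 355 to 1829 with 1 library left out. Leaving out a library changes how many can differ, so these counts are not on one scale. The difference in lost bins between genotypes ranged from −0.05018 to 0.1087 percentage points with 1 library left out. The carry-over from scramble to knockout ranged from 0.4141 to 0.7891 and that from knockout to scramble from 0.4875 to 1.217, positive without any 1 library.

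Lost loci called by genotype numbered 44 without a filter, and 68 to 86 with 1 library left out. Under DMSO they numbered 16 without normalisation, 9 without a filter, 42 with strong peaks and 17 to 36 with 1 library left out. The fit with strong peaks held 568 lost loci rather than 1353. Cause was not tested. At 4 named runs the difference turned with strong peaks: LDLRAD2 (−18.5 bp), BATF3 (−120.2 bp), ARHGEF26 (−31.67 bp) and ISLR (−38.67 bp). TOM1L2 turned with equal covered length (−11.5 bp). No named run turned in 660 values with 1 library left out, which the rule largely fixes, so nothing is read from it. With strong peaks, 29 named runs kept their sign but moved by at least the larger SD of the treatments, and 22 moved by less. With equal covered length these numbers were 17 and 37.

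Libraries with the same replicate number share only a number: their deviations correlated at −0.019 to 0.041 in 18 pairs. With a replicate block, 63 lost loci were called by genotype and 17 under DMSO, and the permutation p-values were 0.25, 0.25 and 0.75. Unknown read depth limits all values, among them those of the weak peaks that form the lost bins.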
